A study of Arabidopsis thaliana with 6 samples.

Results

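Plant NLR proteins are intracellular immune receptors built from a nucleotide-binding domain and a leucine-rich repeat. The receptors described here carry a coiled-coil (CC) or an RPW8-like domain at the N terminus, in contrast to the TIR class. Of 48 Arabidopsis thaliana loci listed for these 2 classes, 23 had a probe set with a single annotated locus, and these gave 24 probe sets among the 22746 tested. The step from locus to probe set rested on the annotation and used no measured value. The loci themselves were listed with earlier results of these data known. The other 25 loci, which include all 5 listed RPW8-type loci, had no such probe set and were not analysed here. Every receptor value below therefore belongs to a CC-type receptor locus or a relative of one. None of the 24 probe sets carried a suffix that marks known cross-hybridisation, but probe sequences were not used here, and signal shared between near-identical relatives was not tested.

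CC-type NLRs bind pathogen effectors, or watch over host proteins that effectors modify, and some are known to assemble into membrane channels that start the hypersensitive response. RPW8-type NLRs act downstream as helpers, together with the lipase-like proteins EDS1, PAD4 and SAG101. In Arabidopsis many NLR transcripts are kept low in unchallenged tissue, since excess receptor can trigger autoimmunity and stunt growth.

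The arrays compared 2 genotypes of the Columbia ecotype, with 3 arrays each, and the labels call the 3 samples of a genotype biological replicates. The transgenic seedlings overexpressed the rice cDNA OsTOP6A1, which encodes a subunit A protein of topoisomerase 6, and the controls are labelled wild type. All seedlings were 10 days old and had been raised on MS medium with 2% sucrose under continuous light after 72 h in the cold. The labels used here give neither the transgene's promoter nor the number of independent lines. The rice transcript was not analysed here.

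The values are deposited probe set intensities on a linear scale. Array medians lay between 37.5 and 39.3, and the ratio of the 3′ to the 5′ control probe set was 1.31 to 1.46 for GAPDH and 16.43 to 22.24 for actin. For ubiquitin it was 3.95, 4.49 and 3.17 in wild type and 2.73, 2.44 and 2.99 in transgenic seedlings, so this sign of RNA quality did not overlap between the genotypes, and its part in the results below was not tested. Pairs of arrays within a genotype correlated at 0.991 to 0.995 across probe sets and pairs between genotypes at 0.975 to 0.978. The markers of green tissue (RCA, LHCB4.1 and PSAE-1) had intensities from 2814.7 to 4405, with RCA at the top. The root markers PYK10 and NAI2 lay between 708.2 and 3544.8, EXPA7 and EXPA18 between 18.2 and 40.9, and the pollen gene AT1G29140 between 0.5 and 4.3. Of 16 listed marker loci 8 had a single-locus probe set, and 0 of these were seed storage genes. Of the 8, 0 passed the limma test between genotypes and 0 had an unadjusted p under 0.05. The genotypes did not overlap for 1 of the 8, NAI2, which was higher in transgenic seedlings, beside 34.9% of all tested probe sets. The log2 fold changes of the 8 ran from -0.07 to 0.12, with 7 above 0. The tissue is whole seedlings, so fewer cells that express a gene and less RNA per cell cannot be told apart.

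Most receptor probe sets gave little signal in either genotype. The mean over the 6 arrays was below an intensity of 16 for 22 of the 24 probe sets (91.7%), beside 35.2% of all tested probe sets. On every array 15 of the 24 stayed at or below 16, and 1, for AT5G35450, stayed above it. An intensity of 16 is used here as a mark of dim signal because the same value was added to each intensity before the logarithm was taken. Detection calls were not used here, so a low intensity is not evidence that a transcript was missing, and intensities of different probe sets were not set against each other as transcript levels.

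**Figure D1:**
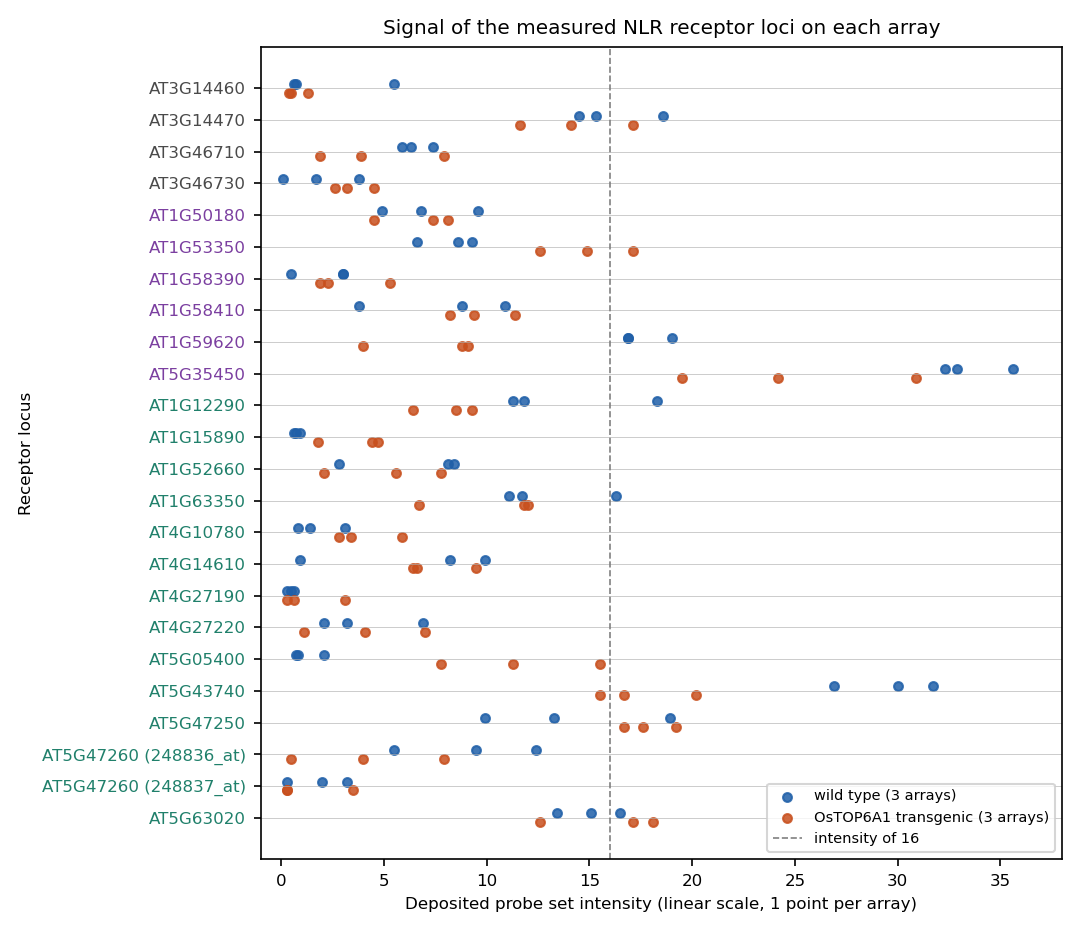
Deposited intensity (linear scale) of each receptor probe set on each of the 6 arrays, wild type in blue and transgenic in orange, with label colours for the 3 groups of relatives (grey for RPM1, RPP13 and ZAR1, purple for RPP7 and RPP8, green for RPS2). Most points lie left of the dashed line at 16, and AT5G35450 and AT5G43740 reach the highest values.

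The comparison of the genotypes asks which receptor transcripts differed between seedlings labelled as carrying the rice transgene and those labelled wild type. With the transgene, AT5G05400 and AT1G53350 rose, and AT1G59620 and AT5G43740 fell. These 4 were 16.7% of the 24 probe sets, and 16.5% of all tested probe sets passed the same threshold, an adjusted p of 0.05 in limma with Benjamini-Hochberg adjustment over all 22746. By direction, 2 of 24 rose and 2 of 24 fell (8.33% each), beside 8.18% and 8.31% of all tested probe sets. The receptor loci as a group therefore changed at a share close to that of the whole array. Among the dim probe sets, with a mean below 16, 3 of 22 receptors passed (13.6%), beside 5.81% of the 8001 such probe sets on the array. That share rests on 3 calls, and the difference between the shares was not tested. At an unadjusted p under 0.05 the count was 7 of 24 receptors, beside 30.5% of all tested probe sets.

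The log2 fold changes of the 24 probe sets ran from -0.54 to 0.67, with a median of -0.01. Over all tested probe sets the median was -0.02. Of the 24 estimates 11 were above 0 and 13 below. No receptor changed 2-fold on the log2(intensity + 16) scale, on which all log2 fold changes here are given and which understates changes of dim probe sets. The 3 arrays of one genotype lay entirely above the 3 of the other for 7 receptor probe sets (29.2%), beside 34.9% of all tested probe sets.

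**Figure D2:**
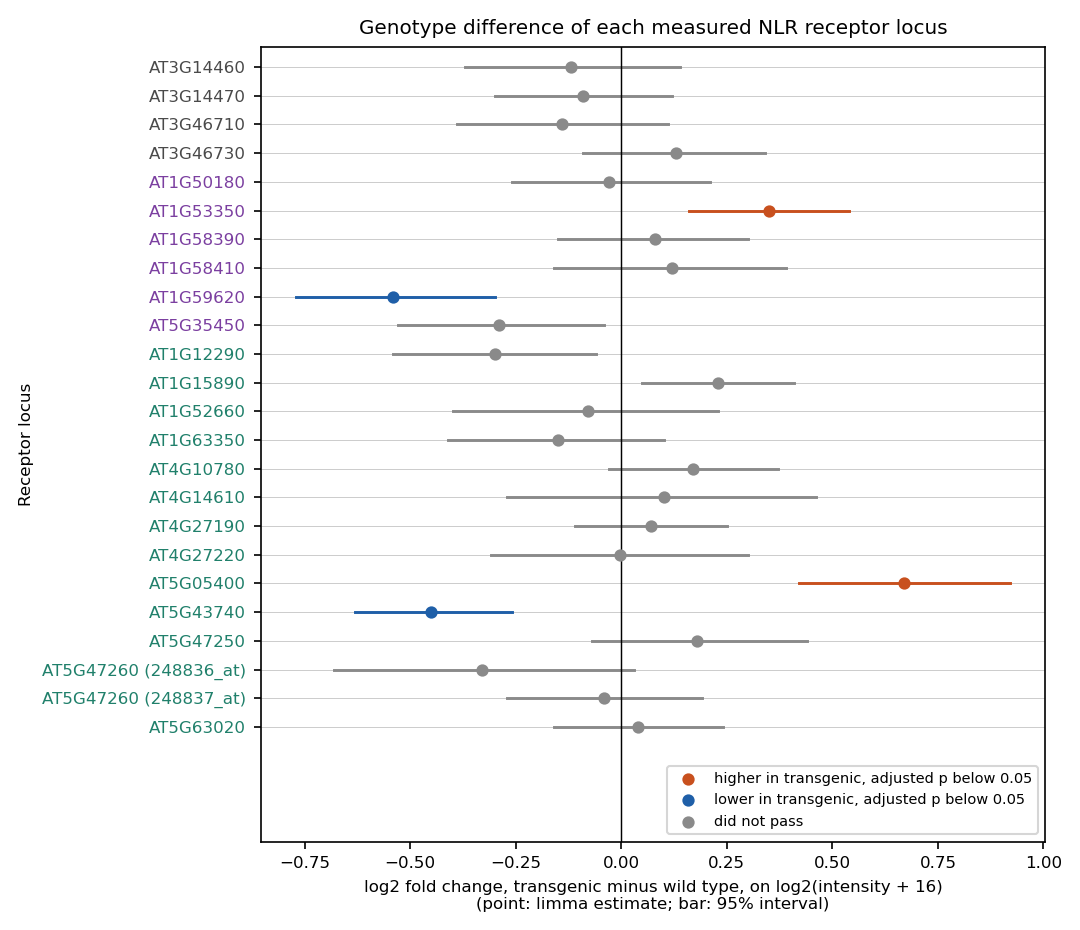
Log2 fold change of each receptor probe set, transgenic minus wild type, on the log2(intensity + 16) scale, with bars for the 95% interval of the limma estimate and label colours as groups of relatives (grey for RPM1, RPP13 and ZAR1, purple for RPP7 and RPP8, green for RPS2). The 2 orange points (AT1G53350 and AT5G05400) passed as higher, the 2 blue points (AT1G59620 and AT5G43740) as lower, and the intervals of most grey points include 0.

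The largest group held relatives of RPS2, a receptor of a bacterial effector that guards the host protein RIN4. RPS2, SUMM2 and RPP39 themselves had no single-locus probe set and were not analysed here. The group's 13 measured loci gave 14 probe sets, of which 1 rose and 1 fell, beside 8.18% and 8.31% of all tested probe sets. The other 12 did not pass, and the log2 fold changes of the group had a median of 0.02.

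AT5G05400 had intensities of 2.1, 0.8 and 0.7 in wild type and 11.3, 7.8 and 15.5 in transgenic seedlings. All 3 transgenic arrays were above all 3 wild type arrays, and all 6 values stayed below 16. The means were 1.2 ± 0.78 and 11.53 ± 3.86 (SD, n = 3 each). Its log2 fold change of 0.67 (SE 0.11, 95% interval 0.42 to 0.92, limma adjusted p = 0.0059) was the largest rise among the receptors. The estimate depended on the value added before the logarithm and was 2.52 with 1 and 0.21 with 64, and the call stood with both values and when any single array was left out.

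AT5G43740, which adjoins the related receptor gene AT5G43730 by locus number, gave 31.7, 30 and 26.9 in wild type and 16.7, 15.5 and 20.2 in transgenic seedlings. The lowest wild type array lay above the highest transgenic array. The means were 29.53 ± 2.43 and 17.47 ± 2.44 (SD, n = 3 each), and the estimate was -0.45 (SE 0.08, 95% interval -0.63 to -0.26, limma adjusted p = 0.00945). Among the 4 receptors that passed, this was the only one whose mean over all arrays exceeded 16. AT5G43730 had no single-locus probe set and was not analysed here.

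In 2 further genes of the group the arrays did not overlap, but neither passed. AT1G12290 had 18.3, 11.3 and 11.8 in wild type and 8.5, 9.3 and 6.4 in transgenic seedlings, and its estimate was -0.30 (limma adjusted p = 0.0923). Wild type replicate 1 was the brightest of its 6 arrays. AT1G15890 had 0.6, 0.7 and 0.9 in wild type and 1.8, 4.4 and 4.7 in transgenic seedlings, and its estimate was 0.23 (limma adjusted p = 0.0894). It passed without transgenic replicate 1 (limma adjusted p = 0.0358) and with a pseudocount of 1 (limma adjusted p = 0.0493). All of its values were under 5 intensity units, where the array offers little signal to compare.

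The remaining genes of the group overlapped between genotypes. AT5G47250 had 13.3, 18.9 and 9.9 in wild type and 17.6, 19.2 and 16.7 in transgenic seedlings, and its log2 fold change of 0.18 had a 95% interval of -0.07 to 0.44. The adjoining gene AT5G47260 was read by 2 probe sets, with log2 fold changes of -0.33 (95% interval -0.68 to 0.03) and -0.04 (95% interval -0.27 to 0.19). The first of them had 5.5, 12.4 and 9.5 in wild type and 7.9, 4 and 0.5 in transgenic seedlings. The second stayed between 0.3 and 3.5 on all arrays, and the intervals of the probe sets overlapped. AT5G63020 had 16.5, 15.1 and 13.4 in wild type and 18.1, 12.6 and 17.1 in transgenic seedlings, with the transgenic arrays on both sides of the wild type ones.

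AT1G63350 had 16.3, 11.7 and 11.1 in wild type and 11.8, 12 and 6.7 in transgenic seedlings, with a log2 fold change of -0.15 (95% interval -0.41 to 0.10). AT4G10780 had 3.1, 0.8 and 1.4 in wild type and 2.8, 5.9 and 3.4 in transgenic seedlings, with 0.17 (95% interval -0.03 to 0.37). In AT4G10780 a single wild type array, replicate 1, reached into the range of the transgenic arrays. AT1G52660 lay between 2.1 and 8.4 on all arrays, and AT4G14610, annotated by RefSeq as a transcribed pseudogene, between 0.9 and 9.9. AT4G27190 and AT4G27220, which lie 3 gene positions apart on chromosome 4, lay between 0.3 and 3.1 and between 1.1 and 7.0. Their estimates were 0.07 and -0.0032, with standard errors of 0.08 and 0.13.

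The relatives of RPP7 and RPP8, a group that includes resistance genes against downy mildew and viruses, gave 6 probe sets for 6 of 11 listed loci. In this group 1 of 6 rose and 1 of 6 fell, beside 8.18% and 8.31% of all tested probe sets. These are single calls, and the difference from those shares was not tested. The other 4 did not pass, and the fold changes had a log2 median of 0.03. RPP7 and RPP8 themselves had no single-locus probe set and were not analysed here.

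AT1G59620, named CW9 in RefSeq, had 19, 16.9 and 16.9 in wild type and 4, 9.1 and 8.8 in transgenic seedlings. Every wild type array was above 16 and every transgenic array below 10 intensity units. The means were 17.6 ± 1.21 and 7.3 ± 2.86 (SD, n = 3 each), and the log2 fold change of -0.54 (SE 0.10, 95% interval -0.77 to -0.30, limma adjusted p = 0.011) was the lowest among the receptors with a pseudocount of 16. With a pseudocount of 1 the estimate was -1.23 and did not pass (limma adjusted p = 0.0604), and AT5G47260 had a lower one, -1.26 in its first probe set. With 64 the estimates of AT1G59620 and AT5G43740 were both -0.20.

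AT1G53350 had 8.6, 9.3 and 6.6 in wild type and 12.6, 14.9 and 17.1 in transgenic seedlings. The genotypes did not overlap, and the means were 8.17 ± 1.4 and 14.87 ± 2.25 (SD, n = 3 each). The estimate was 0.35 (SE 0.08, 95% interval 0.16 to 0.54, limma adjusted p = 0.025). This call ended without any one of 4 arrays, which were wild type replicates 2 and 3 and transgenic replicates 2 and 3, with adjusted p of up to 0.0849.

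AT5G35450, the receptor with the highest intensities, had 32.9, 35.6 and 32.3 in wild type and 19.5, 30.9 and 24.2 in transgenic seedlings. The genotypes did not overlap, but the transgenic arrays spread widely and the log2 fold change of -0.29 (95% interval -0.53 to -0.04) did not pass over all probe sets (limma adjusted p = 0.108). Without transgenic replicate 2 it was -0.39 and passed (limma adjusted p = 0.0412).

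CAR1 (AT1G50180), which recognises effectors of Pseudomonas syringae, had 9.6, 4.9 and 6.8 in wild type and 7.4, 8.1 and 4.5 in transgenic seedlings. Its genotypes overlapped throughout, and the 95% interval of its log2 fold change of -0.03 was -0.26 to 0.21. AT1G58390 and AT1G58410, 2 gene positions apart in the region of chromosome 1 that also holds RPP7, had estimates of 0.08 (95% interval -0.15 to 0.30) and 0.12 (95% interval -0.16 to 0.39). Their intensities lay between 0.5 and 5.3 and between 3.8 and 11.4.

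The third group held relatives of RPM1, RPP13 and ZAR1. RPM1 guards RIN4 against bacterial effectors, RPP13 confers resistance to downy mildew, and ZAR1 forms a channel-like resistosome, but none of these 3 had a single-locus probe set and they were not analysed here. Of the 4 measured loci 0 passed in limma and 0 had an unadjusted p under 0.05, beside 16.5% and 30.5% of all tested probe sets. All 4 overlapped between genotypes, while 34.9% of all tested probe sets did not overlap. The difference of these 4 loci from those shares was not tested. LRRAC1 (AT3G14460), an NLR-like protein reported to carry adenylyl cyclase activity, had 0.7, 5.5 and 0.6 in wild type and 1.3, 0.4 and 0.5 in transgenic seedlings. Wild type replicate 2 alone stood away from the other arrays, and without it the log2 fold change went from -0.12 to 0.01. AT3G14470, 3 gene positions away, had 18.6, 15.3 and 14.5 in wild type and 11.6, 17.1 and 14.1 in transgenic seedlings, with -0.09 (95% interval -0.30 to 0.12). AT3G46710 and AT3G46730, 2 gene positions apart on chromosome 3, had estimates of -0.14 (95% interval -0.39 to 0.11) and 0.13 (95% interval -0.09 to 0.34).

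Over all 3 groups, 20 receptor probe sets did not pass. Their estimates ran from -0.33 to 0.23, and for 17 of the 20 the 95% interval lay within a log2 fold change of 0.5 in either direction. Across the 20 the intervals reached -0.68 at the lowest and 0.46 at the highest. A missed threshold does not show that a receptor was equal in both genotypes, and these intervals on log2(intensity + 16) leave room for larger ratios of dim signals.

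**Figure D3:**
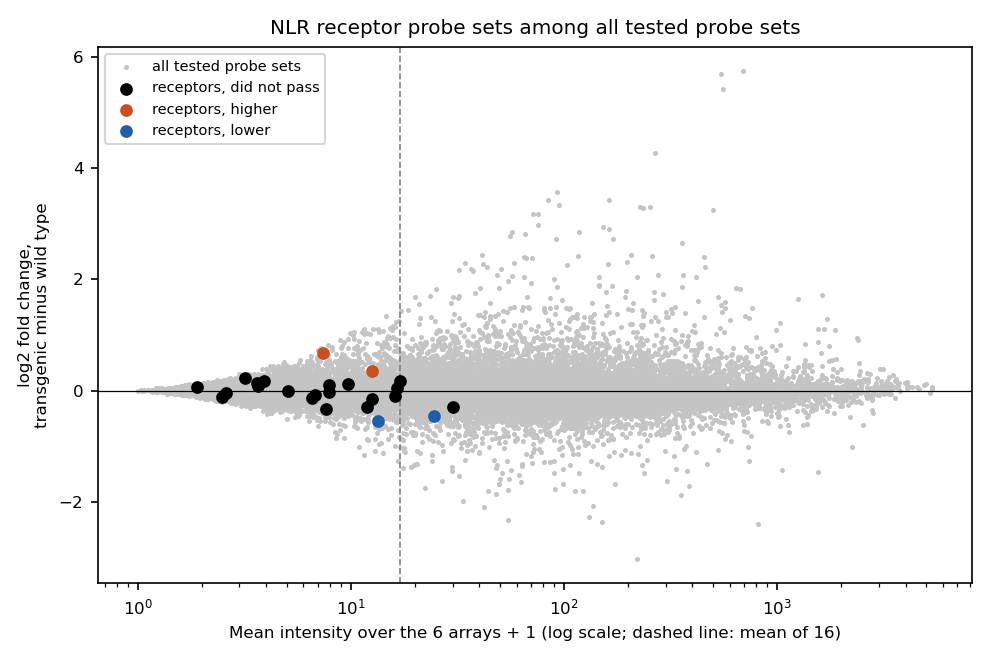
Mean intensity over the 6 arrays plus 1 (log axis) against the log2 fold change, transgenic minus wild type, of all 22746 tested probe sets (light grey) and the 24 receptor probe sets (black where they did not pass, orange where higher, blue where lower). The receptors sit at the dim end, 22 of them left of the dashed line at a mean of 16, and their fold changes span -0.54 to 0.67.

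Receptor genes of these classes often lie in clusters, so the measured genes beside each receptor were read as well, up to 5 gene positions to either side in the RefSeq order of assembly TAIR10.1. These were 84 loci outside the listed receptors, of which 5 rose and 7 fell (14.3%), beside 15.3% of the 13286 loci of the array taken with 1 probe set each. Beside 3 of the receptors that passed, AT5G05400, AT1G53350 and AT5G43740, 0 of 3, 0 of 5 and 0 of 3 measured neighbours passed in limma, and 2, 1 and 1 of them had an unadjusted p under 0.05. The closest measured neighbour of AT5G05400, AT5G05420, was estimated at -0.35 (limma adjusted p = 0.0559), of opposite sign to the receptor's.

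Beside AT1G59620, which fell, 3 of 7 measured neighbours passed, all of them higher in transgenic seedlings, and 4 had an unadjusted p under 0.05. ZCW7 (AT1G59600) went from 47.8 ± 6.5 to 66.8 ± 1.24, CW14 (AT1G59650) from 50.5 ± 2.23 to 65.8 ± 5.44 and AT1G59660 from 16.7 ± 1.85 to 26.8 ± 1.9 (SD, n = 3 each). Their log2 fold changes were 0.38, 0.30 and 0.39, with limma adjusted p of 0.0219, 0.0315 and 0.011. Of the other neighbours, GSTU15 (AT1G59670) and ZCF37 (AT1G59590) had estimates of -0.22 each, in the receptor's own direction, that did not pass, and AT1G59630, the nearest measured gene, had -0.01.

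Some receptors that did not pass had neighbours that did. AT3G46720, the gene between AT3G46710 and AT3G46730, went from 7.6 ± 2.64 to 19.8 ± 3.41 (SD, n = 3 each), and rose by 0.61 (limma adjusted p = 0.00943). AT1G15890 had a positive estimate, while 3 genes near it, AT1G15860, AT1G15870 and AT1G15900, fell by 0.48, 0.48 and 0.41. AT4G10790 rose by 0.45 beside AT4G10780, whose estimate of 0.17 had the same sign. GRXC1 (AT5G63030), a glutaredoxin gene beside AT5G63020, fell by 0.51, while the receptor's estimate was 0.04. Further neighbours that passed fell near receptors whose estimates were below 0. AT1G12250 near AT1G12290 fell by 0.51 and AT3G14510 near AT3G14470 by 0.49, while AT5G47310 fell by 0.36 near AT5G47260 and also near AT5G47250, whose estimate was above 0.

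**Figure D4:**
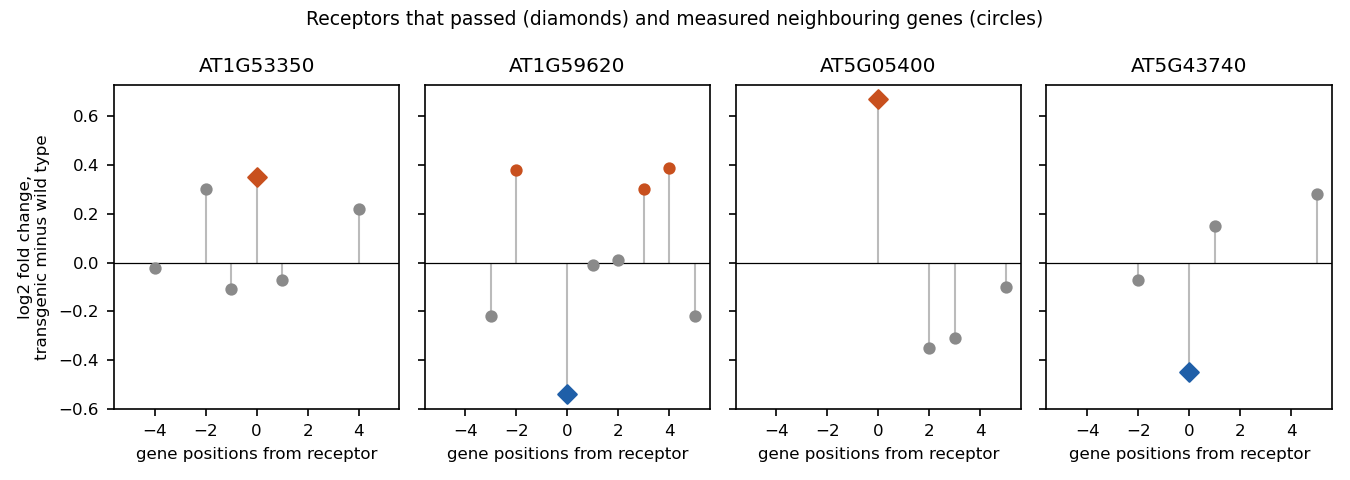
Log2 fold change, transgenic minus wild type, of the 4 receptors that passed (diamonds at 0) and of their measured neighbouring genes (circles) by distance in gene positions, orange where higher and blue where lower at an adjusted p below 0.05 and grey where the gene did not pass. AT1G59620 fell while 3 of its 7 measured neighbours rose, and no measured neighbour of the other 3 receptors passed. The share that passed over the loci of the array was 15.3%.

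Measured receptor loci within 5 gene positions of each other gave estimates of mixed sign. Of 5 such pairs, AT1G58390 and AT1G58410 were both above 0, AT3G14460 and AT3G14470 were both below 0, and the other 3 pairs had estimates on both sides of 0. No member of these 5 pairs passed, beside 15.3% of the loci of the array taken with 1 probe set each, and this difference was not tested.

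The wider pathway could be read only in part. Of 38 listed genes for receptor partners, the EDS1 node and salicylic acid output, 3 had a single-locus probe set. Of these 3, 0 passed in limma and 0 had an unadjusted p under 0.05, beside 16.5% and 30.5% of all tested probe sets. SGT1A (AT4G23570), a co-chaperone that helps to stabilise NLR proteins, had 110, 80.3 and 74.1 in wild type and 87.6, 87.9 and 77.7 in transgenic seedlings, a log2 fold change of -0.04 (95% interval -0.34 to 0.26). EDS1B (AT3G48080), a close copy of the immune regulator EDS1, had 19.4, 12.5 and 10.8 in wild type and 7.7, 16.8 and 6 in transgenic seedlings. SAG101 (AT5G14930), a partner of EDS1, had 30.9, 18.8 and 25.3 in wild type and 13.1, 18.8 and 21.6 in transgenic seedlings, with -0.27 (95% interval -0.59 to 0.04). The genotypes overlapped for all 3. NDR1, RIN4, PBS1, EDS1, PAD4 and PR1 were not analysed here for want of a single-locus probe set.

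A further list of 8 immune and defence genes was taken from the annotation because so few pathway genes could be read. Of these 1 rose and 0 fell, beside 8.18% and 8.31% of all tested probe sets, and 7 did not pass. The gene that rose, PR-1-LIKE (AT2G19990), a relative of the salicylic acid marker PR1, had 18.8, 19.2 and 19.6 in wild type and 32.4, 35.6 and 32.4 in transgenic seedlings. The genotypes were far apart relative to their spread. The estimate was 0.49 on the log2 scale (SE 0.06, limma adjusted p = 0.00228), and the call held in each alternative run. RING1 (AT5G10380), a ubiquitin ligase gene linked to programmed cell death, had means of 83.3 ± 17.2 and 60.07 ± 13.91 (SD, n = 3 each) and an estimate of -0.39, which missed the threshold (limma adjusted p = 0.156). The defensin genes PDF1.2 and PDF1.2b, outputs of jasmonate and ethylene signalling, had estimates of -0.02 and -0.09. The PDF1.2b probe set carried a suffix that marks known cross-hybridisation, so its value may not belong to that gene alone. BIK1, a kinase of surface receptor signalling, and the transcription factor genes WRKY6, WRKY22 and WRKY53 had estimates of -0.10, 0.24, 0.09 and 0.08, and their genotypes overlapped.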

How the data were processed

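Total RNA was labelled as biotinylated cRNA by the standard Affymetrix procedure, per the labels' protocols. The authors deposited 1 linear intensity per probe set and array, and no label or header read here names their software or scaling. All arrays shared a mean of 100.0 once 2% was trimmed from both ends, and no further normalization was applied. The number of arrays limits the precision.

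Of 22810 probe sets 64 controls were left out. The platform annotation gave 13513 tested probe sets 1 gene, 503 several and 8730 none, and the RefSeq table of assembly TAIR10.1 held the locus of 13436. No genome build is given with the values, so no coordinates are reported. The genotypes, 3 arrays each, were compared on log2(intensity + 16) in limma 3.58.1 (R 4.3.3; lmFit, then eBayes), 2-sided, without a block, and checked on simulated data. P-values were adjusted over all tested probe sets.

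The receptors, lists and alternatives were chosen with earlier results of these data known, and the list of 8 further immune genes after the annotation was seen. Named were the receptors that passed without overlap, those with a known function, and, by their values or range, all others. The 3 neighbour gene paragraphs name genes chosen after their values were seen.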

Additional observations from a re-analysis of the deposited data

How the results depend on the processing

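The count of receptors that passed, 4 of 24, stayed at 4 under quantile normalization, median centring, a pseudocount of 1 or 64, a variance trend, removal of probe sets with a cross-hybridisation suffix and 1 probe set per locus, and was 3 to 5 without single arrays. With only probe sets of a mean of at least 16, 2 receptors were left, 1 passed, and their median log2 fold change was -0.37, because the other 22 were removed. With a pseudocount of 1 the median over the receptors was -0.08 and the count over all probe sets fell from 3751 to 2143. Without single arrays that count ran from 2181 to 3433 and the receptor median from -0.03 to 0.06. The calls of AT5G05400 and AT5G43740 held in each alternative that kept their probe sets, with adjusted p from 0.004 to 0.029 and from 0.00377 to 0.0398. With a pseudocount of 1 AT1G59620 lost its call and AT1G15890 gained one (3 higher and 1 lower), and AT1G53350 lost its call in 5 of 13 alternatives. Among the receptors and pathway genes named, those that changed sign did so without having passed. AT4G27220 was at 0.01 under median centring. Without single arrays the log2 fold changes ran from -0.18 to 0.01 for AT3G14460, -0.1 to 0.05 for AT1G50180, -0.0023 to 0.12 for AT1G58390, -0.01 to 0.21 for AT1G58410, -0.21 to 0.03 for AT1G52660, -0.09 to 0.21 for AT4G14610, -0.0015 to 0.11 for AT4G27190, and from -0.11 to 0.11 for AT4G27220, -0.13 to 0.01 for the second probe set of AT5G47260, -0.01 to 0.12 for AT5G63020, -0.14 to 0.11 for AT4G23570, -0.23 to 0.08 for AT2G26020, -0.02 to 0.19 for AT4G01250, -0.01 to 0.25 for AT4G23810, and -0.14 to 0.07 for AT5G44420. The causes were not tested.

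The replicate numbers of the titles were not taken as pairs, since the labels give no batch. Deviations from the genotype means correlated at 0.191, 0.057 and 0.113 for the numbers 1, 2 and 3. Between unlike numbers the correlations ran from -0.159 to 0.082. Only transgenic replicate 2 correlated best with another number, that of wild type replicate 3 (0.082). These correlations are weak but mostly highest for equal numbers, and whether replicates of equal number shared a batch was not tested. With the replicate number as a block, 3592 probe sets passed, among them 3 receptors (1 higher and 2 lower), AT1G53350 did not pass, and RING1 did (limma adjusted p = 0.0197).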
